A study of Mus musculus with 6 samples.

Results

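Potassium channel genes were compared between mouse hippocampal neurons exposed to microglial apolipoprotein E (apoE) particles and neurons exposed to astrocytic apoE particles. The genes were chosen by name: a gene belonged to the group when its symbol began with Kcn, went on with letters and ended in a number, and its deposited log2 value was at least 3.32 in 3 or more libraries. Of 47593 symbols in the files 92 had such a name, and 69 of these reached the threshold, each of them in all 6 libraries. The 23 others stayed below it, and 2 of those, Kcnk16 and Kcnk18, stood at exactly 0 in all libraries. The members with the lowest mean values were Kcnj14 (3.73) and Kcnk5 (3.88), and the highest means among genes left out were those of Kcnj5 (2.46) and Kcnk6 (2.37). All 69 members were tested, and none entered through high values in 1 group only.

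The cells were primary hippocampal neurons of WT mice grown in Neurobasal medium with B27 and GlutaMAX. On culture day 10 they received 6 µg/mL of particles for 24 h, microglial apoE in 3 samples and astrocytic apoE in 3 samples, and total RNA was sequenced. Untreated neurons were not analysed here, and every direction compares microglial with astrocytic apoE. Whether the replicates are separate cultures or animals is not given in the labels, so p-values measure only the spread between these samples, which may be technical.

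Potassium channels let potassium ions leave or enter the cell and so set the resting potential, the shape of the action potential and the rate of firing. Voltage-gated channels open on depolarisation, inward rectifiers hold the membrane near the potassium equilibrium, two-pore channels carry leak current, and calcium- or sodium-activated channels follow the ions that enter during a spike. Auxiliary subunits bind the pore-forming subunits and change their trafficking and gating. In the brain the channels work on both sides of the synapse and also in astrocytes, where Kcnj10 (Kir4.1) takes up the potassium that active neurons release.

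Pore-forming members have a short selectivity filter that lines the path of the ion. In many of them it holds the amino acids threonine, any residue, glycine, tyrosine and glycine. Codons for this run (ACN, any codon, GGN, TAN and GGN, where N is any base, searched in frame on the coding strand of the longest coding sequence of each gene in GENCODE M21) were present in 41 of 60 pore-forming members (68.3%) and in 0 of 9 auxiliary members, against 114 of 21842 protein-coding genes (0.522%). By class they were found in 26 of 34 voltage-gated, 8 of 10 inward rectifier, 6 of 9 two-pore and 1 of 7 calcium- or sodium-activated genes. All 8 Kcnh genes lacked these letters, as did the 3 Kcnn genes. Variants of the run were not searched for, so a gene without these letters may still have a filter. The windows of 36 bases below show the filter codons, in capitals, for 6 of the genes whose levels differed between the groups (GRCm38 coordinates, coding strand, 5′ to 3′). They are printed to show the shared run in 5 voltage-gated genes and in the inward rectifier Kcnj10.
Kcna1 (chr6:126642219-126642254, minus strand): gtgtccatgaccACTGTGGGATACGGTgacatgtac
Kcna2 (chr3:107105212-107105247, plus strand): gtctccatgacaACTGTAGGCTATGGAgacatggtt
Kcng1 (chr2:168262632-168262667, minus strand): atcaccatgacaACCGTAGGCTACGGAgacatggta
Kcnv1 (chr15:45109280-45109315, minus strand): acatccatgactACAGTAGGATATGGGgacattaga
Kcnc2 (chr10:112456217-112456252, plus strand): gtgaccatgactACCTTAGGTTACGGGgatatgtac
Kcnj10 (chr1:172369290-172369325, plus strand): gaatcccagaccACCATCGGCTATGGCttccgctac

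The files give a log2 value per gene, which has the form of a regularized logarithm, a transformation that draws weakly expressed genes towards their mean over the libraries. This form is inferred from the values, as no label names it. With it, fold changes of weakly expressed genes are understated and their SDs and standard errors (SE) are too small. How deeply each library was sequenced is not known. Per library, 2^value summed to between 18060473 and 18100239 with microglial apoE and between 18145684 and 18337624 with astrocytic apoE. A difference was called at an adjusted p under 0.05 in limma over all 15055 genes tested, of which 13.0% were called higher and 11.8% lower with microglial apoE. Centring each library on its median gave 1478 higher and 2765 lower calls over all genes, and equal sums of 2^value gave 2516 higher and 1318 lower, beside 1962 and 1780 as deposited. The 10 neuron markers listed were all present, and their 2^values summed to 70204 to 71992 with microglial apoE and to 71539 to 72797 with astrocytic apoE. Astrocyte markers were also abundant, at 61221 to 61784 with microglial and 72560 to 73761 with astrocytic apoE. Markers of microglia (497.4 to 498.9 with microglial and 468.0 to 486.6 with astrocytic apoE) and of endothelial cells and pericytes (326.0 to 334.4 and 312.6 to 320.5) were low, and those of the oligodendrocyte lineage stood at 6160 to 6332 and 5999 to 6296.

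Of the 69 potassium channel genes 14 fell and 3 rose with microglial apoE (limma, adjusted p under 0.05). Those that fell included the calcium-binding subunit Kcnip3, the astrocyte channel Kcnj10, the M-channel subunit Kcnq3, the calcium-activated channel Kcnn3 and the silent subunits Kcng1 and Kcnv1. Those that rose were Kcnc2, Kcnj4 and Kcns2. The changes were small, between 1.06-fold and 1.29-fold, and 6 genes differed by 0.2 or more on the log2 scale. Called genes made up 20.3% of the members in the lower direction, beside 11.8% of all genes tested, and 4.35% in the higher direction, beside 13.0%. In both directions together, 24.6% of the members and 24.9% of all genes were called. The members' median log2 fold change was -0.020 and that of all genes tested was -0.00057, and 46 members had a negative and 23 a positive value, beside 7592 and 7463 of all genes tested. This balance depended on the scaling, with 37 negative and 32 positive members at equal sums of 2^value and 56 negative and 13 positive with median centring. In 20 of the 69 members every microglial apoE library lay below every astrocytic apoE library, against 2832 of all 15055 genes tested (18.8%). In 3 of the 69 every one lay above, against 3025 of 15055 (20.1%). All 17 called genes were among these. These shares describe the list and were not tested as a set. The 24.9% of all genes called is also the background for each class and family count below, many of which rest on few genes. Members with a mean value of 8 or more were called in 13 of 35 cases (37.1%, beside 29.3% of all genes at that level), and members under 8 in 4 of 34 (11.8%, beside 17.7%). The 3 higher calls were all lost without astrocytic replicate 1, and 12 of the 14 lower calls and 0 of the 3 higher calls held in each of 13 alternative settings or samplings.

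**Figure D1:**
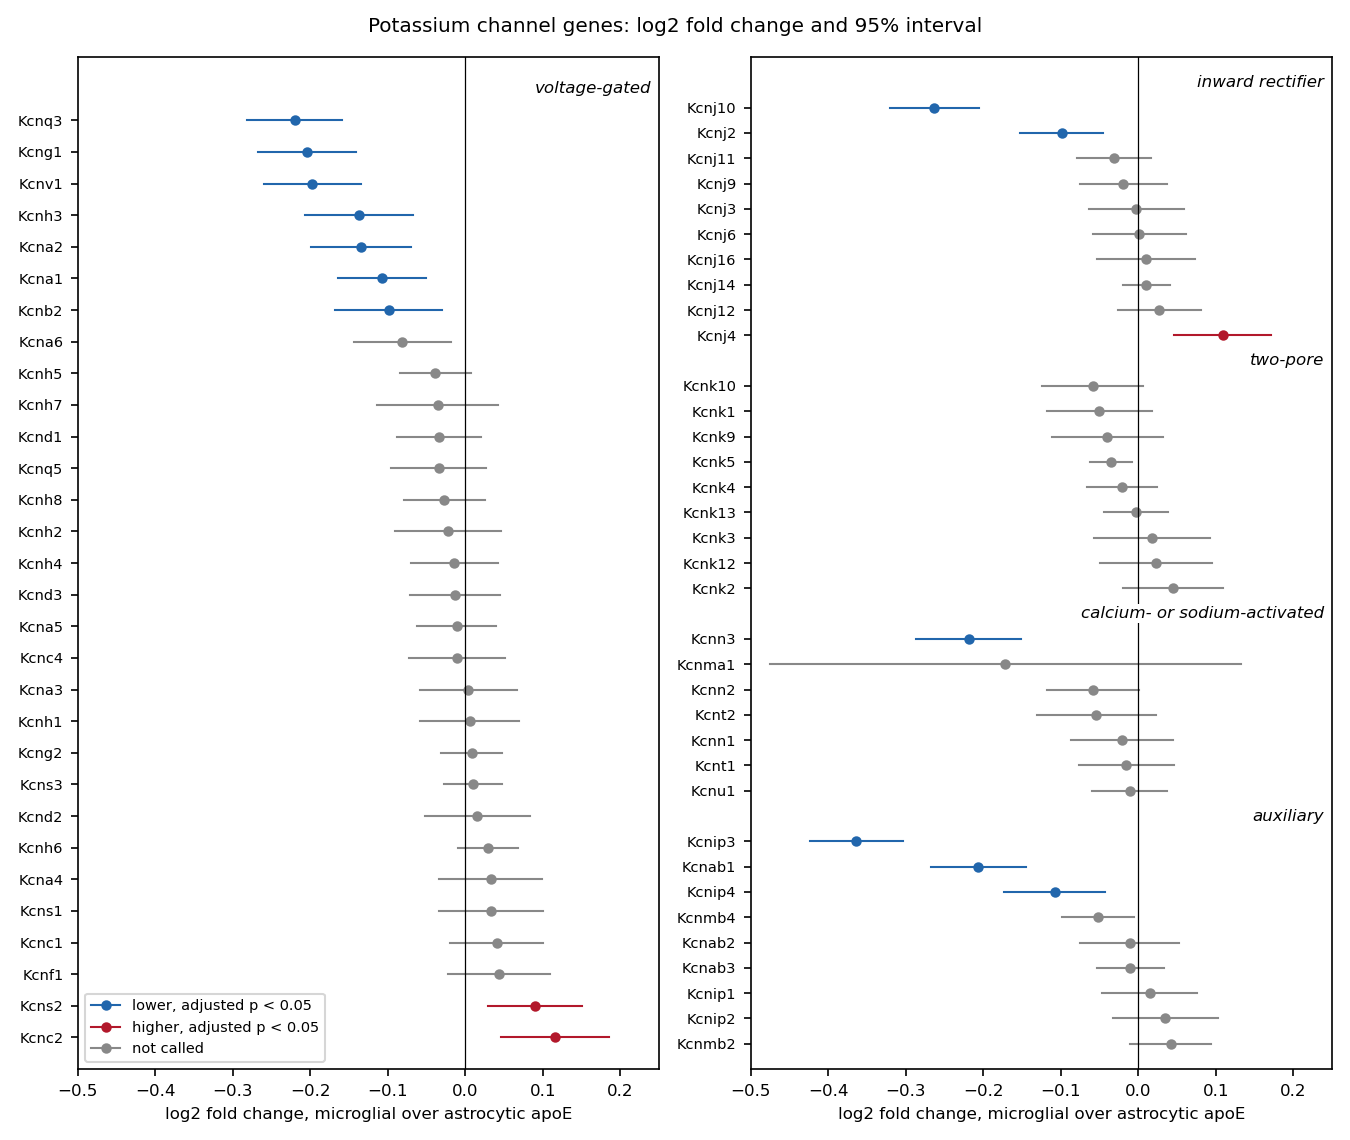
Log2 fold change of 65 of the potassium channel genes (points, microglial over astrocytic apoE) with 95% intervals from limma (lines), by class, with n = 3 samples per group. The 13 plotted genes called lower reach down to -0.36 (Kcnip3), the 3 called higher reach up to 0.12 (Kcnc2), and Kcnma1 has the widest interval.

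Levels of different genes were compared per length, as 2^value per kilobase of merged exon. The voltage-gated class held 43.6% of the members' summed level, the inward rectifiers 19.8%, the two-pore channels 18.8%, the auxiliary subunits 13.4% and the calcium- or sodium-activated channels 4.38%. The highest level belonged to the inward rectifier Kcnj4, with 556 per kb under microglial and 516 per kb under astrocytic apoE. The leak channel Kcnk1 followed with 462 and 478 per kb under microglial and astrocytic apoE, then Kcnj10 with 354 and 425 and the mechanosensitive leak channel Kcnk2 with 365 and 354. Kcnip3 came next, at 250 per kb under microglial and 321 per kb under astrocytic apoE. Of the 10 genes with the highest levels per kb 4 were called, Kcnj4 higher and 3 lower, Kcnj10 and Kcnip3 among them. Of all genes tested 24.9% were called. With astrocytic apoE Kcnj10 stood above Kcnk2 and with microglial apoE below it, the only such exchange among the 4 highest. At the low end Kcnj14 and Kcnk5 had 4.89 and 4.27 per kb with microglial apoE, and 4.85 and 4.38 with astrocytic apoE.

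**Figure D2:**
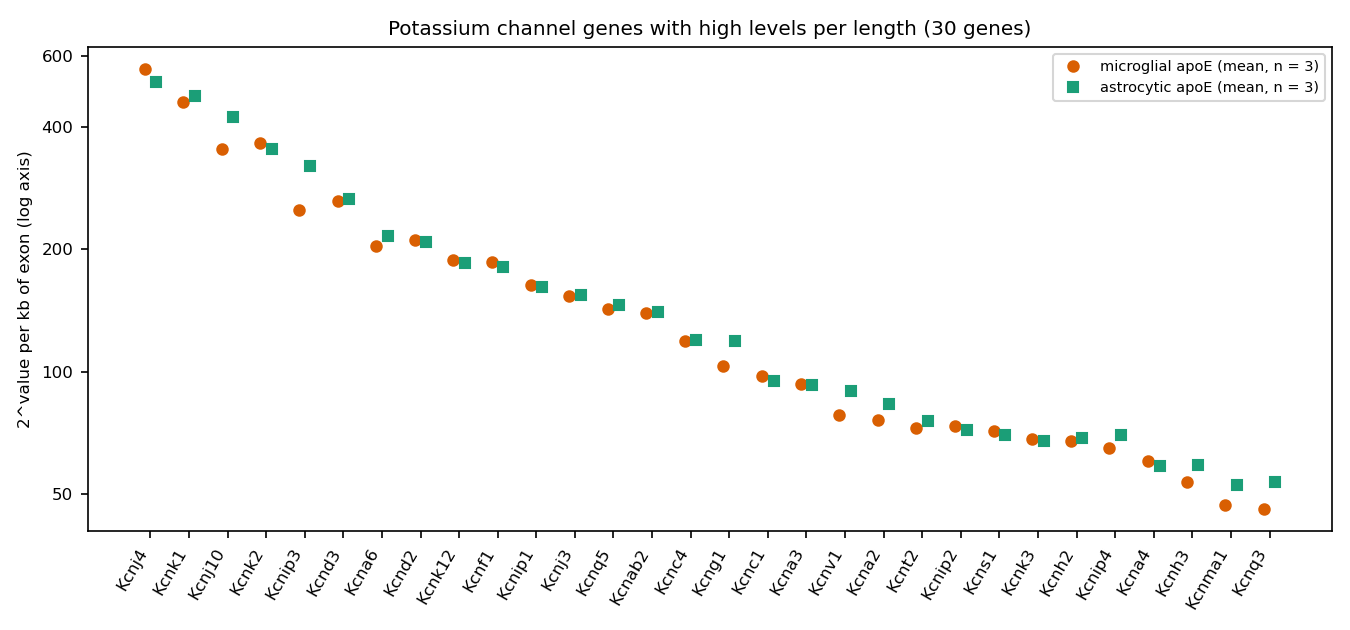
Mean level of 30 potassium channel genes with high values, as 2^value per kilobase of exon on a log axis, with microglial apoE (circles) left of astrocytic apoE (squares), n = 3 each. Kcnip3 and Kcnj10 show wide gaps, with microglial apoE at 250 and 354 per kb, against 321 and 425 with astrocytic apoE.

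Among 34 voltage-gated genes 8 fell and 2 rose (29.4% called, beside 24.9% of all genes tested, median log2 fold change -0.018). Kcnq3 encodes a subunit of the M-channel, which opens slowly below the spike threshold and holds back repetitive firing. Kcnq3 had log2 values of 9.43, 9.36 and 9.40 with microglial apoE, against 9.64, 9.61 and 9.60 with astrocytic apoE. Its groups did not overlap, and the log2 fold change was -0.22 ± 0.030 SE (1.16-fold lower, limma adjusted p = 3.52e-06). The call held in all 13 alternatives. Kcnq5, which is also expressed in brain, was not called, at -0.034 (95% interval -0.095 to 0.027).

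The Kcna genes encode Kv1 channels, which sit on axons and limit spike number and transmitter release. Of 6 tested 2 fell (33.3%, beside 11.8% of all genes tested). Kcna2 stood at 9.86, 9.75 and 9.85 with microglial apoE and at 9.94, 9.97 and 9.95 with astrocytic apoE (log2 fold change -0.13 ± 0.031 SE, adjusted p = 0.00229). Kcna1 stood at 7.03, 7.04 and 7.07 with microglial apoE and at 7.17, 7.13 and 7.16 with astrocytic apoE (-0.11 ± 0.027 SE, adjusted p = 0.00525). The groups of both genes were apart, by a margin of under 0.1 on the log2 scale between the nearest libraries. Kcna6 also had non-overlapping groups, with 10.21 to 10.27 in microglial and 10.29 to 10.38 in astrocytic apoE libraries, but missed the threshold (-0.082 ± 0.030 SE, adjusted p = 0.0516). It passed with libraries centred on their medians (adjusted p = 0.0156) and with the filter of 50 on the 2^value scale (adjusted p = 0.0481). Kcna3, Kcna4 and Kcna5 had log2 fold changes of 0.0037, 0.033 and -0.011.

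Kcnab1, an auxiliary subunit that adds fast inactivation to Kv1 channels, fell as well. Its values were 7.92, 7.88 and 7.92 with microglial apoE, against 8.12, 8.09 and 8.13 with astrocytic apoE (-0.21 ± 0.030 SE, 1.15-fold lower, adjusted p = 9.04e-06). The related subunit genes Kcnab2 and Kcnab3 were not called, with log2 fold changes of -0.011 and -0.010. Kcnab1 shares exon bases with A330015K06Rik on the opposite strand, and the strand setting of the counting is not given in the sources used here.

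Kv2 channels, the main delayed rectifiers of neuronal cell bodies, form alone or with silent subunits that make no channel by themselves. The Kv2 gene Kcnb2 fell, with 8.23, 8.16 and 8.23 in microglial apoE against 8.37, 8.31 and 8.25 in astrocytic apoE libraries (-0.099 ± 0.034 SE, adjusted p = 0.0322). Its nearest libraries differed by little, and the call was lost in 5 of 13 alternatives, among them equal sums of 2^value (adjusted p = 0.0639) and leaving out astrocytic replicate 1 (0.199), astrocytic replicate 2 (0.0908) or microglial replicate 2 (0.143).

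Of the 7 silent subunit genes tested 2 fell, 1 rose and 4 were not called (42.9% called, beside 24.9% of all genes tested). Kcng1 (Kv6.1) stood at 8.87, 8.87 and 8.85 with microglial apoE, against 9.04, 9.11 and 9.04 with astrocytic apoE (-0.20 ± 0.031 SE, adjusted p = 1.62e-05). Kcnv1 (Kv8.1) stood at 8.51, 8.48 and 8.48 with microglial apoE, against 8.72, 8.69 and 8.65 with astrocytic apoE (-0.20 ± 0.031 SE, adjusted p = 2.34e-05). The groups of both genes were well apart. Kcns2 (Kv9.2) went the other way, with 7.46, 7.43 and 7.37 in microglial apoE against 7.33, 7.34 and 7.32 in astrocytic apoE libraries (0.089 ± 0.029 SE, adjusted p = 0.0274). Its call was lost more often than any other of the 17, in 6 of 13 alternatives, among them median centring (adjusted p = 0.0788) and leaving out any 1 astrocytic replicate (0.0581 to 0.0642), microglial replicate 1 (0.141) or microglial replicate 2 (0.070). Kcnf1, the silent subunit with the highest level per kb (186 with microglial and 181 with astrocytic apoE), had a log2 fold change of 0.044, and Kcns1, Kcns3 and Kcng2 had 0.033, 0.0097 and 0.0082.

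Kv3 channels, encoded by the Kcnc genes, let neurons repolarise fast enough to fire at high rates. Kcnc2 (Kv3.2), which is known from fast-spiking interneurons, rose. It stood at 8.29, 8.33 and 8.33 with microglial apoE, against 8.13, 8.23 and 8.26 with astrocytic apoE (0.12 ± 0.034 SE, 1.08-fold higher, adjusted p = 0.0137), and the astrocytic libraries were spread more widely than the microglial ones. The call was lost without astrocytic replicate 1, where the log2 fold change was 0.076 (adjusted p = 0.137), and without microglial replicate 3 (0.0543). Of the 10 neuron markers 1 rose and 3 fell in the same libraries, and their part in the Kcnc2 difference was not tested. The one that rose was Gad1, which makes GABA in inhibitory neurons (0.25 ± 0.025 SE, adjusted p = 3.41e-08), and those that fell were Rbfox3 (-0.079), Map2 (-0.10) and Nefl (-0.12). Kcnc1, which has the same use in fast-spiking cells, was not called, with 9.86, 9.82 and 9.88 in microglial and 9.79, 9.82 and 9.83 in astrocytic apoE libraries (0.041, 95% interval -0.019 to 0.10, adjusted p = 0.33). Kcnc4 lay at -0.011.

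Kv4 channels, the Kcnd genes, carry the A-type current that damps signals in dendrites. None of the 3 was called in limma, nor had any an unadjusted p under 0.05, and the count was also 0 without the trend and robust options. Kcnd2 had 10.08, 10.02 and 10.14 with microglial and 10.12, 10.05 and 10.03 with astrocytic apoE (0.015, 95% interval -0.052 to 0.083), and Kcnd3, the more abundant per kb, had 11.34, 11.26 and 11.31 with microglial and 11.31, 11.33 and 11.30 with astrocytic apoE (-0.013, -0.071 to 0.045). The libraries of both genes overlapped. Kcnd1 lay at -0.034, and its groups did not overlap (6.55 to 6.62 with microglial and 6.63 to 6.64 with astrocytic apoE).

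Kv4 channels carry auxiliary Kcnip subunits (KChIPs), calcium-binding proteins that bring them to the membrane and set their inactivation. Kcnip3, also known as calsenilin or DREAM, which binds presenilins and DNA besides Kv4, had the most negative log2 fold change of all 69 members. It stood at 9.77, 9.79 and 9.80 with microglial apoE, against 10.19, 10.12 and 10.15 with astrocytic apoE. The groups were apart by over 0.3 on the log2 scale, and the log2 fold change was -0.36 ± 0.029 SE (95% interval -0.42 to -0.30, 1.29-fold lower, adjusted p = 4.45e-10). Kcnip4 fell less, with 7.85, 7.93 and 7.86 in microglial against 7.98, 8.03 and 7.95 in astrocytic apoE libraries (-0.11 ± 0.032 SE, adjusted p = 0.0136). This call was lost without astrocytic replicate 2 (adjusted p = 0.102), microglial replicate 1 (0.079) or microglial replicate 3 (0.058), and Kcnip4 shares exon bases with 5730480H06Rik and Gm20700 on the opposite strand. Kcnip1 and Kcnip2 were not called, at 0.015 (95% interval -0.047 to 0.076) and 0.035 (-0.033 to 0.10).

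The Kcnh genes encode channels of the ether-à-go-go group, and 1 of 8 was called. Kcnh3 (Kv12.2), a forebrain channel that sets the firing threshold of pyramidal cells, stood at 8.26, 8.26 and 8.29 with microglial apoE, against 8.35, 8.38 and 8.49 with astrocytic apoE (-0.14 ± 0.034 SE, adjusted p = 0.00392). The astrocytic apoE libraries were more spread, and all lay above the microglial ones. Kcnh3 shares 1 exon base with Mcrs1. The 7 others had log2 fold changes of -0.038 (Kcnh5) to 0.029 (Kcnh6), and Kcnh2, the channel of the heart's repolarising current, lay at -0.023.

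**Figure D3:**
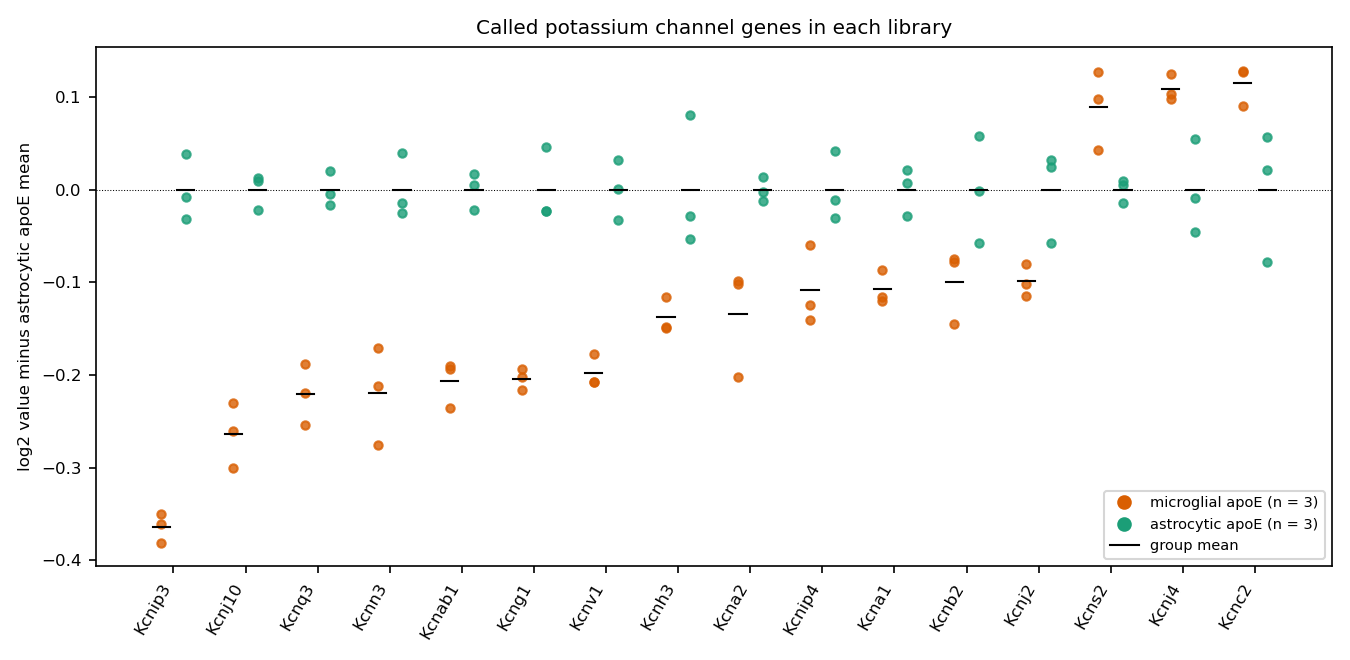
Log2 value of 16 of the called genes in every library, minus the mean of the gene's 3 astrocytic apoE libraries. Points are samples, with microglial apoE left and astrocytic apoE right in each pair, and short lines are group means. The 2 groups do not overlap for any of the 16 genes, with the widest gap at Kcnip3.

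Among 10 inward rectifiers 2 fell and 1 rose (30% called, beside 24.9% of all genes tested, median log2 fold change -0.00054). Kcnj10, the astrocyte channel, had 10.90, 10.87 and 10.94 with microglial apoE, against 11.14, 11.18 and 11.17 with astrocytic apoE. Every microglial apoE library lay below every astrocytic one, and the log2 fold change was -0.26 ± 0.028 SE (1.20-fold lower, adjusted p = 7.51e-08), a call that held in all 13 alternatives. Of 9 tested astrocyte markers 8 fell in the same libraries and 1 rose, with a median log2 fold change of -0.40. They ranged from Gfap at -1.08 to Slc1a3, a glutamate transporter, at 0.094, and the summed marker level was 61221 to 61784 with microglial and 72560 to 73761 with astrocytic apoE. In RNA from a mixed culture fewer astrocytes and less RNA of a gene per astrocyte cannot be told apart, and the part of the astrocyte markers in the Kcnj10 value was not tested. Gjb6, the remaining astrocyte marker listed, was below the filter, and no marker stood at exactly 0. Markers of dividing cells also fell (5 of 5, median -0.59, summed level 1121 to 1134 with microglial and 1821 to 1881 with astrocytic apoE).

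Of other channels known from astrocytes, the 3 taken up here, Kcnj16, Kcnk1 and Kcnk2, were not called. Kcnj16 (Kir5.1), which joins Kcnj10 in heteromeric channels, had 6.57, 6.66 and 6.58 with microglial apoE and 6.62, 6.63 and 6.53 with astrocytic apoE, with overlapping groups (0.010, 95% interval -0.053 to 0.074, adjusted p = 0.845). The leak channel Kcnk1 (TWIK-1) had 10.02, 10.08 and 9.94 with microglial and 10.07, 10.04 and 10.08 with astrocytic apoE (-0.050, -0.12 to 0.017, adjusted p = 0.281). Kcnk2 (TREK-1) had 10.78, 10.81 and 10.86 with microglial and 10.73, 10.75 and 10.83 with astrocytic apoE (0.045, -0.020 to 0.11, adjusted p = 0.317). The upper limit for Kcnj10, -0.21, lay below the lower limits of all 3, a comparison of separate intervals and not a test of their difference. Neurons also express Kcnk1 and Kcnk2.

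Of the strong inward rectifiers of the Kir2 group, Kcnj4 (Kir2.3), a postsynaptic channel of forebrain neurons, rose and Kcnj2 (Kir2.1) fell. Kcnj4 stood at 10.22, 10.24 and 10.21 with microglial apoE, against 10.07, 10.11 and 10.17 with astrocytic apoE (0.11 ± 0.030 SE, 1.08-fold higher, adjusted p = 0.00919). It was no longer called when astrocytic replicate 1 was left out (adjusted p = 0.0777). Kcnj2 stood at 6.20, 6.18 and 6.22 with microglial apoE, against 6.33, 6.32 and 6.24 with astrocytic apoE (-0.099 ± 0.026 SE, 1.07-fold lower, adjusted p = 0.00647). Both pairs of groups were separate, Kcnj2 by a narrow margin. Kcnj12 (Kir2.2) and Kcnj14 (Kir2.4) were not called, at 0.027 and 0.010.

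The G protein-gated channels that mediate slow inhibition, Kcnj3 (GIRK1), Kcnj6 (GIRK2) and Kcnj9 (GIRK3), gave 0 calls in limma, 0 unadjusted p-values under 0.05 and 0 calls without the trend and robust options. Kcnj3 had 9.68, 9.63 and 9.63 with microglial and 9.64, 9.68 and 9.63 with astrocytic apoE (-0.0024, 95% interval -0.064 to 0.059). Kcnj6 had 6.52, 6.45 and 6.42 with microglial and 6.48, 6.41 and 6.50 with astrocytic apoE (0.0013, -0.059 to 0.061). The libraries of both overlapped, and Kcnj9 lay at -0.020. Kcnj11, the pore of the ATP-sensitive channel, was not called (-0.032), nor was its partner Abcc8 (-0.060, adjusted p = 0.128).

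**Figure D4:**
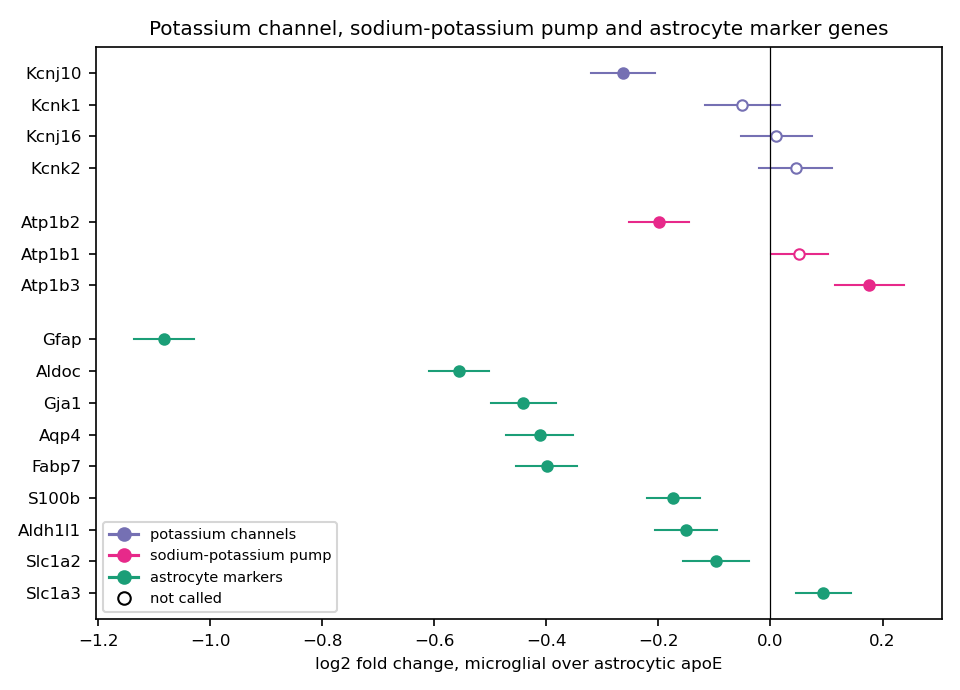
Log2 fold change (microglial over astrocytic apoE, points) with 95% intervals from limma (lines, n = 3 samples per group) for 4 potassium channels known from astrocytes, 3 subunits of the sodium-potassium pump and 9 astrocyte markers. Filled points were called and open points were not. Kcnj10 and Atp1b2 lie at -0.26 and -0.20, with 8 of the 9 markers also below 0.

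None of the 9 two-pore genes was called in limma, beside 24.9% of all genes tested. Of the 9, 1 (Kcnk5) had an unadjusted p under 0.05, and 0 were called without the trend and robust options. Their log2 fold changes ran from -0.059 (Kcnk10) to 0.045 (Kcnk2), with a median of -0.021. The groups of Kcnk10 and of Kcnk5 did not overlap, with microglial apoE below. Kcnk5 (TASK-2), the member with the lowest level per kb, missed the threshold at 3.87, 3.85 and 3.86 with microglial and 3.91, 3.90 and 3.89 with astrocytic apoE (-0.035 ± 0.013 SE, adjusted p = 0.0533). It passed with median centring (adjusted p = 0.0089) and without astrocytic replicate 3 (0.0425). At so low a value the inferred transformation compresses both the difference and its spread. The acid-sensitive channels Kcnk3 (TASK-1) and Kcnk9 (TASK-3), which neurons use as leak conductances, lay at 0.018 (95% interval -0.057 to 0.092) and -0.040 (-0.11 to 0.032).

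Of 7 genes placed by symbol in the calcium- or sodium-activated class 1 was called (14.3%, beside 24.9% of all genes tested). Their median log2 fold change was -0.054, and all 7 values were negative as deposited and with median centring, whereas with equal sums of 2^value 6 were negative and Kcnu1 stood at 0.0022. Kcnn3 (SK3), a small-conductance channel that calcium opens to prolong the pause after a spike, stood at 8.50, 8.39 and 8.46 with microglial apoE, against 8.71, 8.65 and 8.64 with astrocytic apoE (-0.22 ± 0.033 SE, 1.16-fold lower, adjusted p = 1.57e-05). Its groups were apart, and the call held in all 13 alternatives. In the same libraries 8 of 9 tested astrocyte markers fell and 1 rose, and their part in the Kcnn3 value was not tested. The related Kcnn2 (-0.059, adjusted p = 0.142) and Kcnn1 (-0.021) were not called, although the Kcnn2 groups did not overlap (7.67 to 7.69 with microglial and 7.72 to 7.76 with astrocytic apoE). With equal sums of 2^value in the libraries the value for Kcnn2 was -0.045 and with median centring -0.077 (adjusted p = 0.048).

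Kcnma1, the large-conductance BK channel that calcium and voltage open together, was set apart by 1 library. It had 9.79, 9.40 and 9.70 with microglial apoE, against 9.83, 9.81 and 9.76 with astrocytic apoE, so that microglial replicate 2 lay below all other libraries while microglial replicate 1 lay within the range of the astrocytic ones. The log2 fold change was -0.17 ± 0.113 SE (95% interval -0.48 to 0.13, adjusted p = 0.358), and without microglial replicate 2 it was -0.059. Its auxiliary subunits Kcnmb4 and Kcnmb2 were not called, at -0.052 (adjusted p = 0.0968) and 0.042 (adjusted p = 0.243). Kcnmb4 passed with median centring (adjusted p = 0.0232) and shares exon bases with Kcnmb4os1 and Kcnmb4os2 on the other strand. The sodium-activated Kcnt1 and Kcnt2 lay at -0.016 and -0.054. Kcnu1, a sperm channel in mice that is in this class by its symbol only, lay at -0.011.

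Of the 52 members that were not called, 51 had a 95% interval within 0.2 of 0 on the log2 scale, and Kcnma1 was the exception. Those intervals rest on SEs that the inferred transformation shrinks, most for weakly expressed genes, so they are too narrow by an unknown amount. Of all members 24 share exon bases with another annotated gene, among them Kcna6, Kcnma1, Kcnj3, Kcnj6, Kcnk1 and Kcnk2, and their values may hold reads of that gene.

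Some of the genes lie side by side in the genome, and their neighbours were compared (members within 500000 bases of each other, GRCm38). Kcna2 on chromosome 3 (107101146 to 107115005), which fell, lies next to Kcna3 (107036169 to 107038070), at 0.0037. On chromosome 6, Kcna1 (126640397 to 126646384), which fell, lies between Kcna5 (126532551 to 126535412), at -0.011, and Kcna6 (126708329 to 126740674), at -0.082. On chromosome 1, Kcnj10 (172341210 to 172374085), which fell, lies beside Kcnj9 (172320501 to 172329318), at -0.020, and on chromosome 11 Kcnj2 (111066164 to 111076821), which fell, lies beside Kcnj16 (110968033 to 111027968), at 0.010. In each of these groups of neighbours 1 gene was called and no adjacent gene was, although Kcna6 was close to the threshold (limma adjusted p = 0.0516). Kcnc4, also within this distance on chromosome 3, was not called (-0.011). On chromosome 7 Kcnj14, Kcnj11 and Kcnc1 formed another such group, and none of them was called (0.010, -0.032 and 0.041). The differences between neighbours were not tested.

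Partners of potassium channels and the transporters that maintain the potassium gradient were taken from a list outside the name pattern. Of 23 listed genes 19 were tested, of which 4 rose and 3 fell (36.8% called, beside 24.9% of all genes, median log2 fold change 0.014). The count of 7 was 5 with median centring, with no filter and without the trend and robust options. Leaving out 1 library gave 4 to 7, and 4 without astrocytic replicate 2, microglial replicate 1 or microglial replicate 3. Atp1b2, Atp1b3 and Dpp10 were called in each of the 13 alternatives, while Lgi1 and Slc12a5 were lost in 7 and 9 of them.

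Dpp10, a transmembrane partner of Kv4 channels, stood at 10.51, 10.44 and 10.50 with microglial apoE, against 10.64, 10.63 and 10.57 with astrocytic apoE (-0.13 ± 0.030 SE, adjusted p = 0.00155). The related Dpp6 was not called, with 11.24 to 11.30 in microglial and 11.27 to 11.29 in astrocytic apoE libraries (-0.0021, adjusted p = 0.967). Lgi1, a secreted protein that acts on Kv1 channels, rose (0.087 ± 0.029 SE, adjusted p = 0.0291), whereas the Kv1 partners Cntnap2 and Adam22 lay at 0.014 and -0.0056, the Kv2 partner Amigo1 at 0.022, and the anchor of M-channels at the axon initial segment, Ank3, at -0.015. None of these 4 passed.

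The sodium-potassium pump, which restores the gradient that the channels use, had beta subunits called in both directions. Atp1b2, a beta subunit enriched in astrocytes, stood at 12.35, 12.36 and 12.37 with microglial apoE, against 12.54, 12.57 and 12.56 with astrocytic apoE (-0.20 ± 0.026 SE, 1.15-fold lower, adjusted p = 1.61e-06). Its groups were apart, in the libraries in which the summed astrocyte markers were lower, and the markers' part in this value was not tested. The beta subunit Atp1b3 rose, with 10.63, 10.57 and 10.58 in microglial apoE against 10.37, 10.43 and 10.45 in astrocytic apoE libraries (0.18 ± 0.029 SE, adjusted p = 6.24e-05). Atp1b1 was not called, at 0.051 (adjusted p = 0.135), although its groups did not overlap. Slc12a5 (KCC2), which carries potassium and chloride out of neurons, rose by 0.078 on the log2 scale (adjusted p = 0.0498), and Slc12a2 (NKCC1), which carries them in, was not called (-0.019, adjusted p = 0.684).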

How the data were processed

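The deposited files hold a single log2 value per gene symbol and sample for 6 samples. Per the submitters' processing notes FastQC, HISAT2, featureCounts, DESeq2 and GRCm38 were used, without stated roles; their versions, the annotation and the strand setting are not stated there. That the authors' log2 values are a regularized logarithm is inferred from the values. No count test was possible, and the depth is unknown. Values were tested as deposited with limma 3.58.1 (R 4.3.3, trend and robust options), genes with a value of at least the log2 of 10 in 3 libraries entering, adjusted by Benjamini-Hochberg. The procedure was tested on simulated data, normal noise with each gene's own SD in the deposited values and some genes changed by known amounts. Such data cannot show whether those SDs are themselves too small. Tables and figures used Python 3.11.15, pandas 2.3.3, numpy 2.4.6 and matplotlib 3.10.9. Positions, exon lengths and coding sequences are from GENCODE M21 (GRCm38), which held all 69 members. Classes follow the gene symbols. By the rule for named genes the text gives every called member, a list of others, genes at the selection threshold and, chosen after their values were seen, the rest; some genes are not reported here. Members, lists and tests were chosen with earlier results of these data known. Genes that share exon bases with another gene (24 members) are uncertain. Alternatives changed scaling, filter, pseudocount, limma options, replicate block and the libraries left out.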

Additional observations from a re-analysis of the deposited data

How the results depend on the processing

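The 14 lower calls numbered 12 to 16 when 1 library was left out and 13 to 18 under the other settings. The 3 higher calls numbered 0 to 2 when 1 library was left out: 0 without astrocytic replicate 1 (3 at an unadjusted p under 0.05 in limma) and 2 without any other. The members' median log2 fold change of -0.020 was -0.0060 with equal sums of 2^value and -0.038 with median centring. With no filter on low values the median was -0.0065, but over 90 Kcn genes, including genes below the selection threshold. The log2 fold changes of the members themselves do not change with the filter. Values near 0 changed sign: Kcnj3 was 0.011 with equal sums, and with median centring Kcnj16 was -0.0081, Kcnd2 -0.0030 and Kcnj6 -0.017. With 1 library left out the ranges were -0.019 to 0.012 for Kcnj3, -0.022 to 0.029 for Kcnj16, -0.014 to 0.044 for Kcnd2 and -0.027 to 0.024 for Kcnj6, and partner calls numbered 4 to 7. None of these 4 genes was called in any setting. With the replicate number as a block, the same 14 lower and 3 higher members and 5 partners were called. Deviations from the group means correlated at 0.039, -0.12 and -0.19 between equally numbered libraries of the 2 groups. Between unequally numbered libraries they correlated at -0.12 to 0.18. With 3 libraries per group this cannot decide whether equal numbers mark paired libraries, which the labels do not give. The unknown depth leaves weakly expressed genes the least certain.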
